A study of Mus musculus with 8 samples.

Results

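The mitosis and G2/M genes are 46 mouse genes whose products drive cells into mitosis, build and check the spindle, condense and separate the chromosomes, and divide the cell. They were taken by name from a list of genes of these functions, which was drawn up with earlier results of these data known. Of the 46, 44 were represented by a probe set named for that gene alone, against 12393 genes named by at least 1 probe set. All 44 passed the filter on low signals and were tested among 7340 genes. Ccnb1, which encodes cyclin B1, and Espl1, which encodes separase, had no probe set named for them alone and were not analysed here.

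The cells were MCE301, a single line of mouse colonic epithelial cells that carries a temperature-sensitive SV40 large T-antigen transgene. They received 2 mM sodium butyrate, an inhibitor of histone deacetylases made by gut bacteria, for 0, 6, 12 or 24 h, and RNA from each of the 4 times was hybridised to 2 arrays, 8 in all. Every group shares the line and the transgene, and the sources used here do not state the culture temperature. Butyrate and time in culture cannot be told apart, since the later times have no untreated arrays. Whether both arrays of a time stem from separate cultures is not stated, so p-values measure only the spread between arrays, which may be technical.

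Cells enter mitosis when a cyclin-dependent kinase, Cdk1, is switched on by mitotic cyclins and by phosphatases of the Cdc25 family. Polo-like and Aurora kinases then organise centrosomes, spindle and kinetochores, the spindle checkpoint delays separation until every chromosome is attached, and the anaphase-promoting complex with Cdc20 starts separation by sending securin and cyclin B for destruction. Most of these genes are transcribed in waves that peak in late cell cycle, and their RNA is low in cells that have left the cycle, as the differentiated cells of the colon surface have.

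The array signals had been scaled by the authors to a trimmed mean of 500.2 on all arrays. Within a time the 2 arrays correlated at 0.979 to 0.982 across probe sets, which are not independent of each other. All 8 epithelial markers, among them Epcam and Cdh1, passed the filter, 0 of 7 fibroblast markers and 0 of 4 endothelial markers did, and 1 of 4 immune markers did. That one was Cd68, a lysosomal protein, and it carried the immune list to summed signals of 1182.5 to 1216.2 at 24 h, against 494.0 to 519.4 at 0 h. Epithelial markers summed to 77913.5 to 91748.7 at 24 h, against 54031.1 to 59414.9 at 0 h, and fibroblast markers to 234.9 to 321.8 at 24 h, against 254.6 to 364.4 at 0 h. The epithelial rise was not shared by every marker. By limma at 24 h against 0 h, Epcam, Krt19 and Ocln had adjusted p of 0.365, 0.131 and 0.35, and Ocln had a negative log2 change (-0.20). Cdh1, Krt8, Krt18, Cldn4 and Cldn7 were higher at an adjusted p under 0.05. The part of these shifts in the results on mitotic genes was not tested.

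Mitotic RNA fell across nearly the whole list over 24 h of butyrate. The summed signal of the 44 genes was 64478 and 66937 on the arrays at 0 h, 55110 and 54717 at 6 h, 44390 and 45026 at 12 h, and 23539 and 22664 at 24 h. The arrays of each time lay below those of the time before. At 24 h, 41 of 44 genes had fallen against 0 h, 2 were called higher by the probe set used (Pttg1 and Zwint, whose probe sets disagreed) and 1 did not pass the test. Their median log2 change was -1.995, against 0.04 over all genes tested, and the median gene was 3.99-fold lower. Of the 41, 38 were lower by at least 2-fold and 22 by at least 4-fold, from 1.47-fold for Bub3 to 9.95-fold for Ccna2.

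Changes were tested with limma on log2(signal + 32), with calls made where the p adjusted by Benjamini-Hochberg over all 7340 genes was under 0.05. Folds are taken on this scale, which makes the change of dim genes look smaller. At 24 h, 93.2% of the mitotic genes were called lower, against a background of 23.5% of all genes, and 4.55% were called higher, against 24.6%. In RNA from a whole culture, fewer cells in mitosis and less mitotic RNA per cell cannot be told apart. Under a stricter filter on low signals, only 32 members were tested. Of the 43 calls at 24 h, 40 held under every alternative setting that tested the gene, and with any 1 array left out. The exceptions were Bub3, Zwint and Cdc25c, whose adjusted p was 0.0617 without replicate 2 of 0 h.

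**Figure D1:**
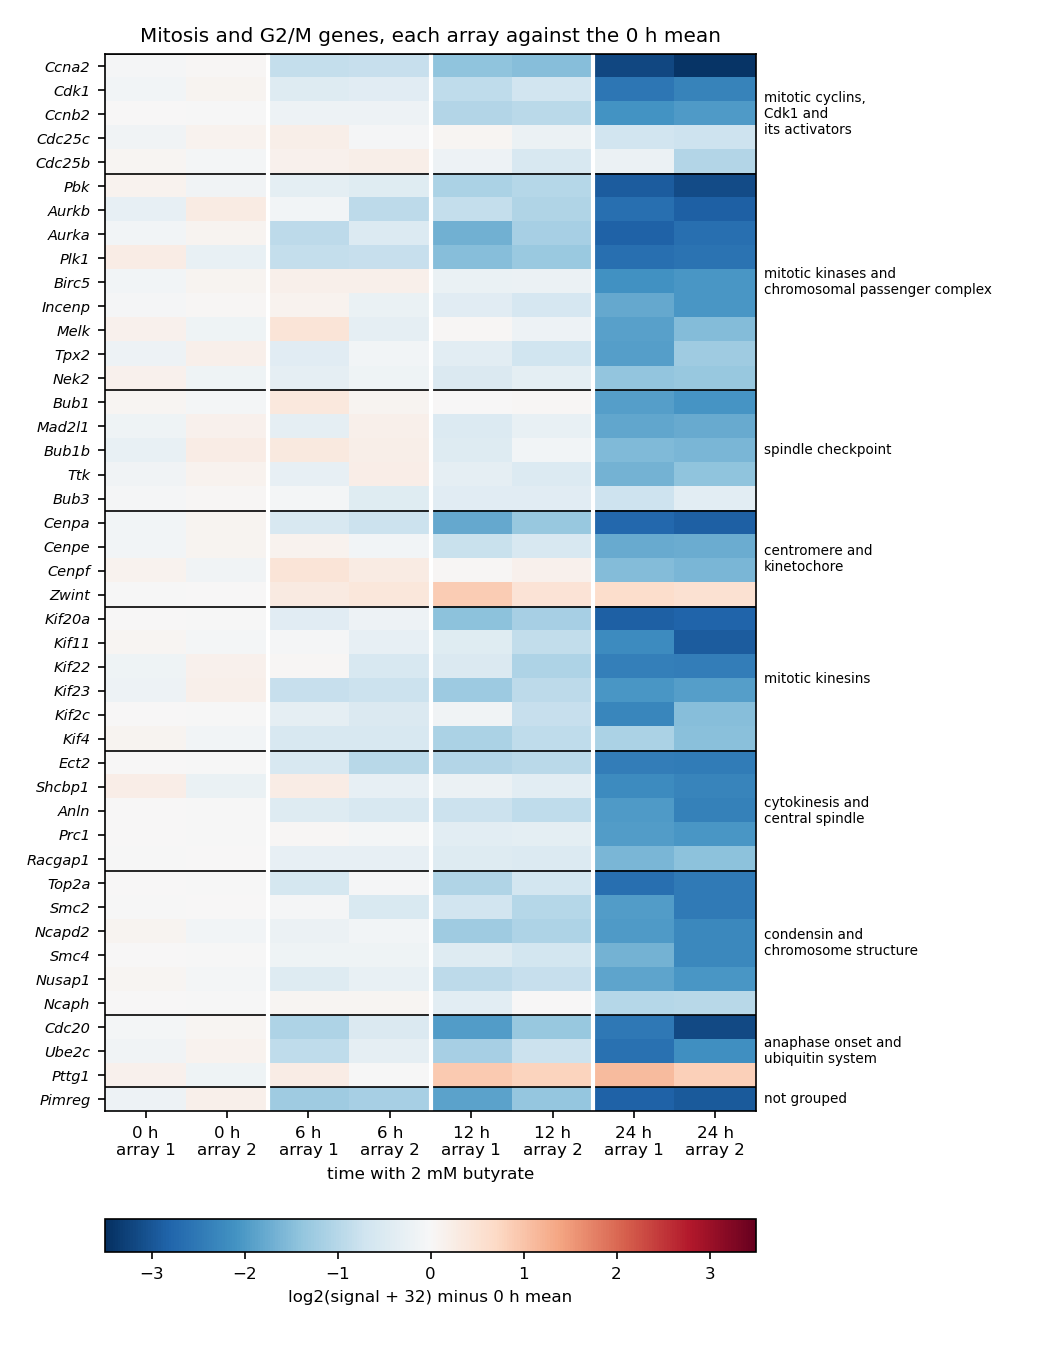
Heat map of the 44 genes (rows, ordered by function) on the 8 arrays (columns, by hours with 2 mM butyrate). Colour gives log2(signal + 32) minus the mean of the 2 arrays at 0 h, blue for lower and red for higher. Nearly all rows are dark blue on both 24 h arrays, and Zwint and Pttg1 are the red rows at 12 and 24 h.

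The members share more than their place in the cycle. Promoters of many late cell cycle genes carry a CHR element, most often TTTGAA, which is bound by the MuvB complex, and CCAAT boxes, which are bound by NF-Y. Promoter sequences of 300 bases, from 250 before to 50 after the gene start, came from RefSeq on GRCm38.p6 and were found for 34 of the 44 genes, with 37 promoters in all. On either strand, CCAAT was in 78.4% of these promoters, against 37.4% of all 32851 promoters. TTTGAA was in 70.3%, against 17.9%, and both motifs were in 64.9%, against 7.0%. A related form, TTTAAA, was in 21.6%, against 13.2%. An E2F-like form, TTGGCGC, was in 13.5%, against 2.5%, and a second one, TTCCCGC, was in 0.0%, against 4.6%. Counted by gene, against the 6044 tested genes with a promoter entry, the shares were 76.5% against 43.4% for CCAAT, 67.6% against 13.6% for TTTGAA and 61.8% against 5.6% for both. They were 23.5% against 10.7% for TTTAAA, 11.8% against 5.7% for TTGGCGC, and for TTCCCGC 0.0% against 10.7%. The run ATTGG, which is CCAAT on the other strand, and TTGGCGC can share letters. A match is a description of the sequence and was not tested as a bound site.

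A few of the promoters are shown as the 100 bases before the gene start, 5′ to 3′ on the gene's strand, with CCAAT and TTTGAA in capitals in either orientation (ATTGG and TTCAAA on the other strand). The first 6 belong to genes that fell, and they hold both motifs within these bases. They are Cdc20 (chr4:118437344-118437443, minus strand), Cdk1 (chr10:69352913-69353012, minus), Prc1 from the second of its listed starts (chr7:80294376-80294475, plus), Kif11 (chr19:37376282-37376381, plus), Top2a (chr11:99024190-99024289, minus) and Ube2c (chr2:164769829-164769928, plus). Bub1 (chr2:127831860-127831959, minus) is shown as a gene that fell late and holds CCAAT without TTTGAA. Zwint (chr10:72654746-72654845, plus) and Pttg1 (chr11:43425982-43426081, minus) are shown because they were the genes called higher.
Cdc20: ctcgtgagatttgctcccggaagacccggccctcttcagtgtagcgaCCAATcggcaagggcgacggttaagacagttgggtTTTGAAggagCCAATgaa
Cdk1: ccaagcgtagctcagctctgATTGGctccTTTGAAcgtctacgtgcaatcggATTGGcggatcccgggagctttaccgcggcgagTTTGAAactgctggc
Prc1: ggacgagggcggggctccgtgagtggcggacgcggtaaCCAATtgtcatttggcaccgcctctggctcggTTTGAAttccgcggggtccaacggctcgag
Kif11: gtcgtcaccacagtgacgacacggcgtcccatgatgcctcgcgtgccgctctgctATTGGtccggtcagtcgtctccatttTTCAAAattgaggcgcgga
Top2a: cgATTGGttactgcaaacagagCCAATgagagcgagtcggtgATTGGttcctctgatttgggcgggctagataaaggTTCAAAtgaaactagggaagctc
Ube2c: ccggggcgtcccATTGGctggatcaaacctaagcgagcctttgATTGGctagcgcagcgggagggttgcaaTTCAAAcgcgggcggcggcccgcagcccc
Bub1: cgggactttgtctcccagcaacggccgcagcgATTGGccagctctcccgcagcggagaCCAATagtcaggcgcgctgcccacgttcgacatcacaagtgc
Zwint: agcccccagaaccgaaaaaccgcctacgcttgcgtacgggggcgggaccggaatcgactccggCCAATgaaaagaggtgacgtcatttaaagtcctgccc
Pttg1: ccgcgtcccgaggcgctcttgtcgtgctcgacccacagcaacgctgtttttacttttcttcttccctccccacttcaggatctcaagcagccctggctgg

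Zwint holds CCAAT in the bases shown, and also the related form TTTAAA, which is not in capitals there. Pttg1 holds neither CCAAT nor TTTGAA in its whole 300-base window, nor TTTAAA. Pttg1 was not alone in lacking CCAAT and TTTGAA, since Birc5, Mad2l1, Melk, Ncaph and Nusap1 also hold neither, and all 5 of those genes fell. Of those 5, only Birc5 holds TTTAAA. Of all members with an entry, 67.6% hold TTTGAA in the 300-base window. Of the 6 genes that had already fallen at 6 h, Plk1, Cenpa, Kif23 and Ect2 hold it, which was not tested against that share. The other early genes, Ccna2 and Pimreg, have no entry. No promoter sequence was at hand either for Aurkb, Cdc25c, Incenp, Kif20a, Pbk, Shcbp1, Smc4 and Tpx2.

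The mitotic cyclins and their kinase lost most of their RNA. Ccna2, encoding cyclin A2, which works with its kinases from DNA replication into mitosis, gave signals of 2891 and 3032 at 0 h, 1654 and 1694 at 6 h, 1088 and 1034 at 12 h, and 296 and 244 at 24 h. Both arrays of each time lay below both of the time before, and the fall at 24 h was 9.95-fold (adjusted p = 1.09e-06), the greatest among the 44 genes. Cdk1, the kinase that drives entry into mitosis, gave 2548 and 2969 at 0 h, 2020 and 2065 at 6 h, 1469 and 1704 at 12 h, and 451 and 514 at 24 h, again with no overlap between neighbouring times. Its log2 change at 24 h was -2.44 ± 0.17 (SE). Ccnb2, encoding cyclin B2, stayed near its starting level at 6 h and dropped afterwards, with 2069.8 and 2057 at 0 h, 1838 and 1823 at 6 h, 999 and 1059 at 12 h, and 463 and 497 at 24 h.

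The phosphatases that activate Cdk1 moved least in this group. Cdc25c gave 252 and 303 at 0 h, 324 and 269 at 6 h, 294 and 234 at 12 h, and 161 and 153 at 24 h, and was lower at 24 h by a log2 change of -0.71 ± 0.18. Only its 24 h arrays stood clear of those at 0 h. Cdc25b gave 339 and 179 at 24 h, against 414 and 380 at 0 h. Its 24 h arrays both lay below those at 0 h but far from each other, and the log2 change of -0.61 had an adjusted p of 0.0614. With the replicate number as a block, the adjusted p of Cdc25b was 0.0281, and it was 0.00605 without replicate 1 of 24 h.

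All 9 genes of mitotic kinases and the chromosomal passenger complex fell at 24 h, with a median of 4.21-fold. Pbk, a mitotic protein kinase, gave 1945 and 1636 at 0 h, 1408 and 1314 at 6 h, 816 and 881 at 12 h, and 208 and 175 at 24 h. Each step down was free of overlap, and the fall was 8.15-fold at 24 h. Plk1, polo-like kinase 1, which acts from mitotic entry to cytokinesis, gave 1478 and 1036 at 0 h, 685 and 700.3 at 6 h, 416 and 488 at 12 h, and 172 and 181 at 24 h. Its 2 arrays at 0 h differed widely from each other, those at 6 h were below both, and the fall reached 6.09-fold at 24 h.

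Both Aurora kinases fell at 24 h, Aurka by 6.61-fold and Aurkb by 6.73-fold. Aurka, the centrosomal one, gave 1231 and 1384 at 0 h, 683 and 933 at 6 h, 387 and 565 at 12 h, and 157 and 184 at 24 h, with no overlap between neighbouring times. Aurkb, the enzyme of the chromosomal passenger complex, gave 644 and 992 at 0 h, 752 and 411 at 6 h, 436 and 373 at 12 h, and 102 and 82 at 24 h, and its 6 h arrays overlapped both neighbours. Its partners in that complex, Birc5 (survivin) and Incenp (the scaffold), fell at 24 h by log2 changes of -2.07 ± 0.15 and -1.92 ± 0.18. Nek2, a kinase that helps centrosomes part, Melk, a kinase of the AMPK-related family, and Tpx2, which activates Aurora A on the spindle, fell by -1.36, -1.71 and -1.58 on the log2 scale.

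The spindle checkpoint genes were called lower only at the last time. By limma 0 of the 5 were called at 6 or at 12 h, also 0 at an unadjusted p under 0.05. With 5 genes this is not set apart from the 6.68% and 17.5% of all genes called lower at those times. All 5 were lower at 24 h, with a median of 2.99-fold. Bub1, a kinase that recruits the checkpoint to kinetochores, gave 1122 and 1001 at 0 h, 1374 and 1136 at 6 h, 1071 and 1088 at 12 h, and 256 and 230 at 24 h. Its arrays at 12 h sat within the span of those at 0 h, while those at 24 h were far below all others. Bub1b, encoding BubR1, gave 187 and 179 at 24 h, against 507 and 735 at 0 h. Mad2l1, encoding Mad2, which with BubR1 holds Cdc20 inactive, gave 591 and 609 at 24 h, against 1924 and 2413 at 0 h, and Ttk, the kinase Mps1 that starts the checkpoint signal, 90.1 and 115 at 24 h, against 323 and 390.3 at 0 h. The arrays of the 2 times were clear of each other in all 3.

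Bub3, the partner that Bub1 and BubR1 need to reach kinetochores, had the smallest of the 41 falls at 24 h. It gave 2239.6 and 2883 at 24 h, against 3635 and 3857 at 0 h, a log2 change of -0.55 ± 0.18 with an adjusted p of 0.0291. This call was lost with no filter (adjusted p = 0.0783), with the mean of all kept probe sets (0.131), and without either 0 h array or replicate 1 of 24 h (up to 0.196).

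The centromere and kinetochore genes Cenpa, Cenpe and Cenpf were all lower at 24 h, with different time courses. Cenpa, the histone H3 variant that marks centromeres, gave 1814 and 2066 at 0 h, 1297 and 1136 at 6 h, 534 and 752 at 12 h, and 262 and 240.3 at 24 h. Every time lay clear below the one before, and the fall was 6.96-fold at 24 h. Cenpe, a kinesin of the outer kinetochore, gave 222 and 258 at 0 h, 264 and 223 at 6 h, 126 and 152 at 12 h, and 48.5 and 50.3 at 24 h, so that it was level at 6 h and lower from 12 h on. Cenpf, a large kinetochore protein that peaks in late cycle, gave 1168 and 989.6 at 0 h, 1468 and 1309 at 6 h, 1115 and 1208 at 12 h, and 352 and 335 at 24 h, and only its 24 h arrays were below those at 0 h.

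All 6 mitotic kinesins, the motors of the spindle, were lower at 24 h, with a median of 4.59-fold. Kif20a, which carries the passenger complex to the central spindle, gave 1068 and 1053 at 0 h, 796 and 941 at 6 h, 373 and 458 at 12 h, and 118 and 124 at 24 h. There was no overlap between neighbouring times, and the fall was 7.15-fold at 24 h. Kif23, a motor subunit of centralspindlin, gave 1094 and 1422 at 0 h, 694 and 732 at 6 h, 497 and 646 at 12 h, and 279 and 303 at 24 h. Kif11, the motor that pushes spindle poles apart, gave 59.3 and 23.8 at 24 h, against 407 and 364 at 0 h, and 1 of those 24 h signals lay below the pseudocount of 32. Kif22 and Kif2c, a chromosome-arm motor and a microtubule depolymerase, fell at 24 h by log2 changes of -2.41 ± 0.25 and -1.89 ± 0.28.

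Kif4, a chromosome-bound motor, gave 414 and 358 at 0 h, 249.6 and 249 at 6 h, 163 and 191 at 12 h, and 161 and 120.2 at 24 h. The drop came early, and the arrays at 24 h lay just below those at 12 h. Its log2 change at 24 h against 12 h was -0.28 ± 0.17 and was not called (adjusted p = 0.428).

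All 5 genes of cytokinesis and the central spindle fell at 24 h, with a median of 4.52-fold. Ect2, which activates the small GTPase RhoA at the cleavage plane, gave 1138 and 1115 at 0 h, 751 and 560 at 6 h, 533 and 571 at 12 h, and 184 and 180.1 at 24 h. Its 6 h arrays were below those at 0 h, the 6 and 12 h arrays overlapped, and the 24 h arrays were far lower. Anln, encoding anillin of the contractile ring, gave 629.6 and 477 at 24 h, against 2614 and 2560.3 at 0 h. Prc1, which bundles the microtubules of the central spindle, gave 294 and 275 at 24 h, against 1249.7 and 1217 at 0 h, and Racgap1, the other subunit of centralspindlin, 238 and 269 at 24 h, against 768 and 798 at 0 h. Shcbp1, a midbody protein, fell by a log2 change of -2.26 ± 0.22.

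The 6 genes of condensin and chromosome structure were lower at 24 h too, with a median of 4.11-fold. Top2a, the topoisomerase that untangles sister chromatids, gave 2875 and 2828 at 0 h, 1866 and 2769.6 at 6 h, 1366 and 1832 at 12 h, and 427 and 486 at 24 h. The arrays at 6 h spread widely but stayed below those at 0 h, and the fall was 5.91-fold at 24 h. The condensin core subunits Smc2 and Smc4 fell by log2 changes of -2.22 ± 0.23 and -1.95 ± 0.20, and the condensin I subunit Ncapd2 by -2.13 ± 0.17. Ncaph, another condensin I subunit, fell by less, with 988 and 1010.1 at 24 h, against 2002 and 1987 at 0 h. Nusap1, a microtubule protein of the spindle, gave 138 and 116 at 24 h, against 605 and 552 at 0 h.

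The genes of anaphase onset split. Cdc20, the activator of the anaphase-promoting complex, gave 2185 and 2393 at 0 h, 1056 and 1600.3 at 6 h, 564 and 885 at 12 h, and 376 and 227 at 24 h. Neighbouring times did not overlap, although the arrays within a time differed widely after 0 h, and the fall was 7.14-fold at 24 h. Ube2c, the ubiquitin-conjugating enzyme of the complex, gave 815 and 1137 at 24 h, against 4751 and 5584 at 0 h. Pimreg, a protein of dividing cells that binds the clathrin assembly protein Picalm and was put in no group, gave 912 and 1170.1 at 0 h, 416 and 443 at 6 h, 259.8 and 382 at 12 h, and 117 and 106 at 24 h. Its arrays were lower at every step, and the fall was 7.43-fold at 24 h.

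**Figure D2:**
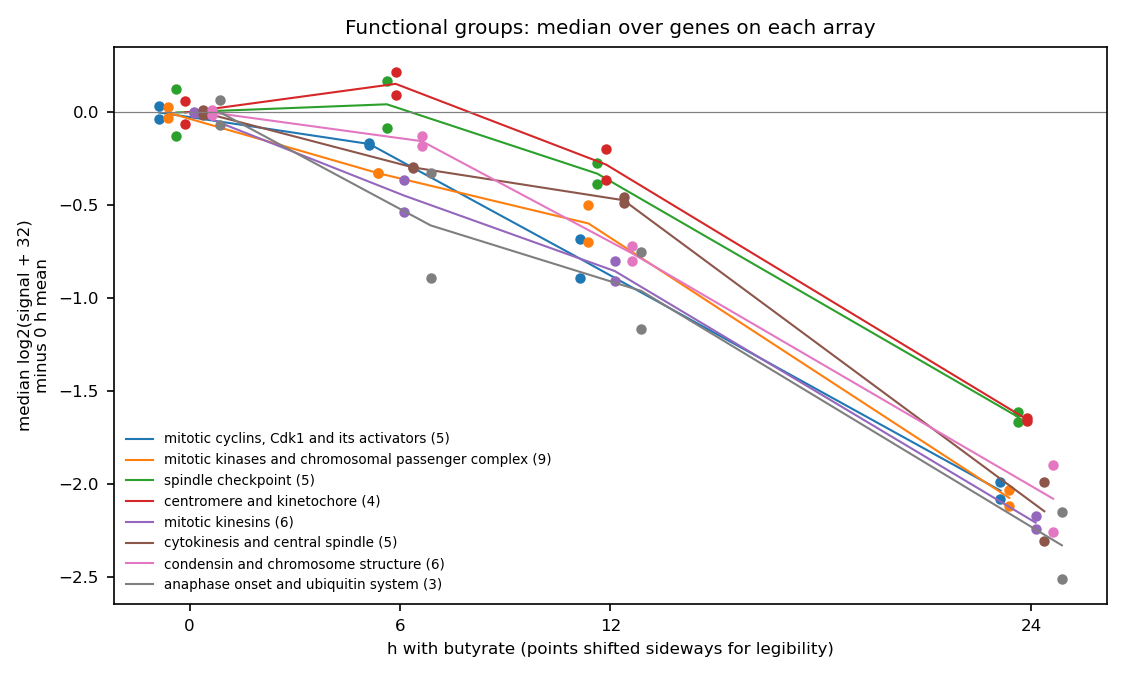
Median over the genes of each functional group of log2(signal + 32) minus the 0 h mean (vertical axis) at 0, 6, 12 and 24 h with butyrate (horizontal axis). Each point is 1 array, lines join the means of the 2 arrays, and the number of genes stands in the legend; all 8 groups end far below 0, with the spindle checkpoint and the kinetochore uppermost.

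Pttg1 rose while the genes around it fell. It encodes securin, the inhibitor of separase whose destruction lets sister chromatids part. Its signals were 3146 and 2544 at 0 h, 3377 and 2813 at 6 h, 5332 and 4916 at 12 h, and 6186 and 5044 at 24 h. The arrays at 0 and 6 h overlapped, and both later times lay above all 4 of them. Pttg1 was 1.8-fold higher at 12 h (adjusted p = 0.00544) and 1.96-fold higher at 24 h (adjusted p = 0.00161). Its second kept probe set gave a log2 change of 0.97 at 24 h, and the 24 h call held under every setting tried. The 12 h call reached an adjusted p of 0.05, and so was lost, without replicate 2 of 0 h.

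Zwint, a kinetochore protein that helps bring the ZW10 complex to chromosomes, was called higher by the probe set with the brightest signal, but its probe sets disagreed. That probe set gave 1969 and 2046 at 0 h, 2498 and 2649.9 at 6 h, 3713 and 2804 at 12 h, and 3065 and 2942 at 24 h, with all later arrays above both at 0 h. It was 1.49-fold higher at 24 h (adjusted p = 0.0188). Of the 4 other kept probe sets of Zwint, 3 went the other way at 24 h, with log2 changes of -0.63, -0.47 and -0.13, and 1 gave 0.28. With the mean of all of them the log2 change was -0.08 (adjusted p = 0.678), so no direction is given for the gene as a whole. The call was also lost with no filter (adjusted p = 0.0546) and without any 1 of the 4 arrays (0.0566 to 0.0845).

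Across the other genes, kept probe sets pointed one way at 24 h, the only time at which directions were counted. Earlier times could differ, as at 6 h for Racgap1, with -0.29 in the probe set used and 0.21 in its other kept one. The members had 79 probe sets in all, and 20 genes had at least 2. Of 26 further kept probe sets, from 18 genes, 23 had the direction of the one used at 24 h, and the 3 that did not were those of Zwint.

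**Figure D3:**
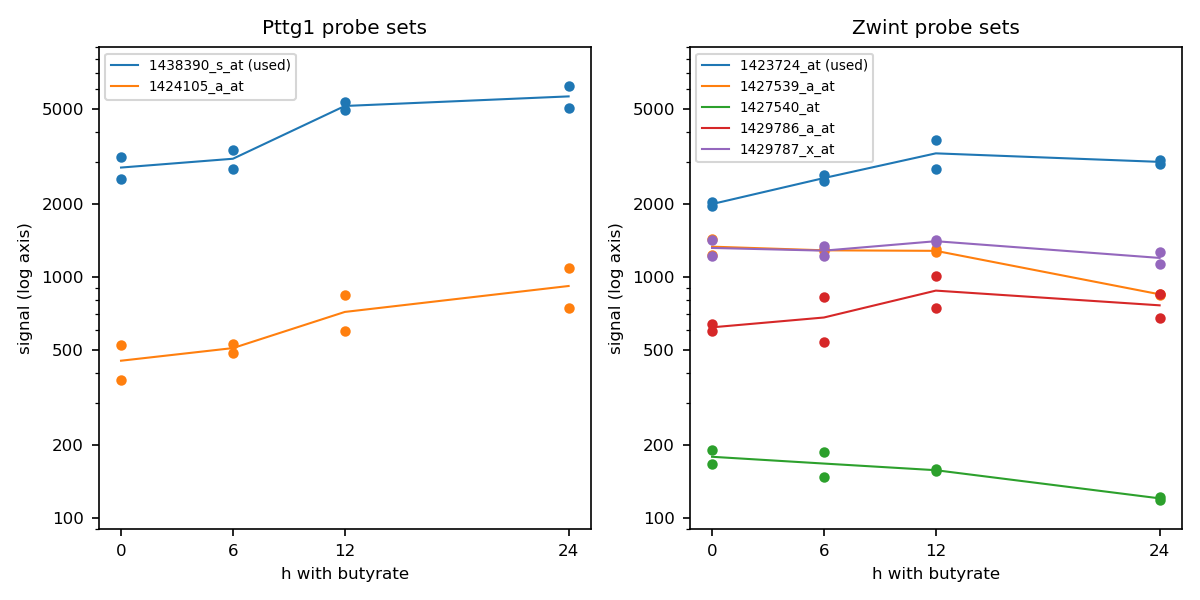
Signals of every kept probe set of Pttg1 and Zwint on each array at 0, 6, 12 and 24 h with butyrate (signal on a log axis, 1 line for each probe set). Both Pttg1 lines go up by 24 h, while the Zwint lines part, 2 of 5 ending higher and 3 lower than at 0 h.

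At 6 h only a few members had moved. Ccna2, Plk1, Cenpa, Kif23, Ect2 and Pimreg, 6 of 44 or 13.6%, were called lower, against 6.68% of all genes. None was called higher by limma (1 at an unadjusted p under 0.05), against 9.06% of all genes. The median log2 change was -0.25, against 0.01 over all genes. Pimreg had the greatest of these falls, with a log2 change of -1.21 ± 0.20 (adjusted p = 0.00389). Ccna2 and Plk1 each had -0.81, Kif23 -0.78, Ect2 -0.77 and Cenpa -0.66, with standard errors of 0.16 to 0.19.

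Most of the 6 h calls depended on single arrays. Pimreg kept its call under every setting in which it was tested, the stricter filter having left it out. Ccna2 lost its call only without replicate 2 of 0 h (adjusted p = 0.0548). The other 4 lost it with no filter. Cenpa lost it without any 1 of the 4 arrays (up to 0.197), Plk1 without replicate 1 of 0 h or either 6 h array (up to 0.131), Kif23 without replicate 2 of 0 h or either 6 h array (up to 0.136), and Ect2 without either 0 h array or replicate 2 of 6 h (up to 0.0901). With the replicate number as a block, 10 genes were called lower at 6 h, the added ones being Anln, Aurka, Kif4 and Ube2c.

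By 12 h genes of nearly every function had fallen. Of the 44 genes, 23 were called lower against 0 h, or 52.3%, against 17.5% of all genes, and Pttg1 and Zwint were called higher, 4.55% against 18.1%. The median log2 change was -0.66, against 0.03 over all genes. Cdc20 had the greatest fall, with a log2 change of -1.65 ± 0.28, followed by Pimreg with -1.62 ± 0.20 and Cenpa with -1.56 ± 0.19. Counts by function were 4 of 6 kinesins, 4 of 6 genes of chromosome structure, 3 of 5 of the Cdk1 group, 3 of 5 of cytokinesis, 4 of 9 of the kinases and passenger complex, 2 of 4 of the kinetochore, 2 of 3 of anaphase onset and 0 of 5 of the checkpoint. Calls lost at 12 h without some 1 array were those of Aurkb, Cenpe, Kif22, Racgap1, Smc2, Top2a and Ube2c among the falls, and of Pttg1 and Zwint. With the replicate block Incenp (adjusted p = 0.0253), Kif11 (0.012) and Smc4 (0.0313) were called lower at 12 h as well.

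Between 6 and 12 h, 6 genes fell by the direct test, or 13.6%, against 2.14% of all genes. They were Ccna2, Ccnb2, Cenpa, Cenpe, Kif20a and Ncapd2, and the last pair moved most, each with a log2 change of -1.01 (adjusted p = 0.0147). Ncapd2 gave 328 and 369 at 12 h, against 706 and 760.2 at 6 h, with a wide gap between the times. The count was 0 or 1 with any 1 of the 4 arrays left out, and 0 with no filter. With the replicate block Aurka (adjusted p = 0.0225) and Pbk (0.029) were also called lower in this window and Pttg1 (0.0177) higher.

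Most genes fell after 12 h. Between 12 and 24 h, 38 of 44 genes fell, or 86.4%, against 3.58% of all genes, with a median log2 change of -1.33, against 0.01. Bub1 and Pbk led, with log2 changes of -2.02 ± 0.16 and -1.98 ± 0.17. The genes that did not pass this test were Kif4, Bub3, Cdc25b, Cdc25c, Zwint and Pttg1, of which Cdc25c was called lower with the replicate block (adjusted p = 0.0418). The count was 23 without replicate 2 of 12 h and at least 30 without any other of the 4 arrays.

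The falls can be ordered by when they were first called. Of the 41 genes lower at 24 h, 6 were called from 6 h, 17 first at 12 h and 18 first at 24 h. This split depends on the threshold and on the probe set used. With the mean of all kept probe sets, 29 genes were called lower at 12 h, against 23 with the probe set used. The median gene had made 12.7% of its 24 h log2 change by 6 h and 33.5% by 12 h, from -6.9% for Cenpf to 78.0% for Kif4. Group medians at 12 h were 49.2% for anaphase onset, 39.2% for kinesins, 38.5% for the kinetochore, 38.0% for the Cdk1 group, 35.2% for chromosome structure, 33.5% for kinases and passenger complex, 31.1% for cytokinesis and 20.9% for the checkpoint. These shares describe groups of 2 to 9 genes and were not tested against each other. Within a group they ran widely, in the checkpoint from -1.3% for Bub1 to 70.9% for Bub3.

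**Figure D4:**
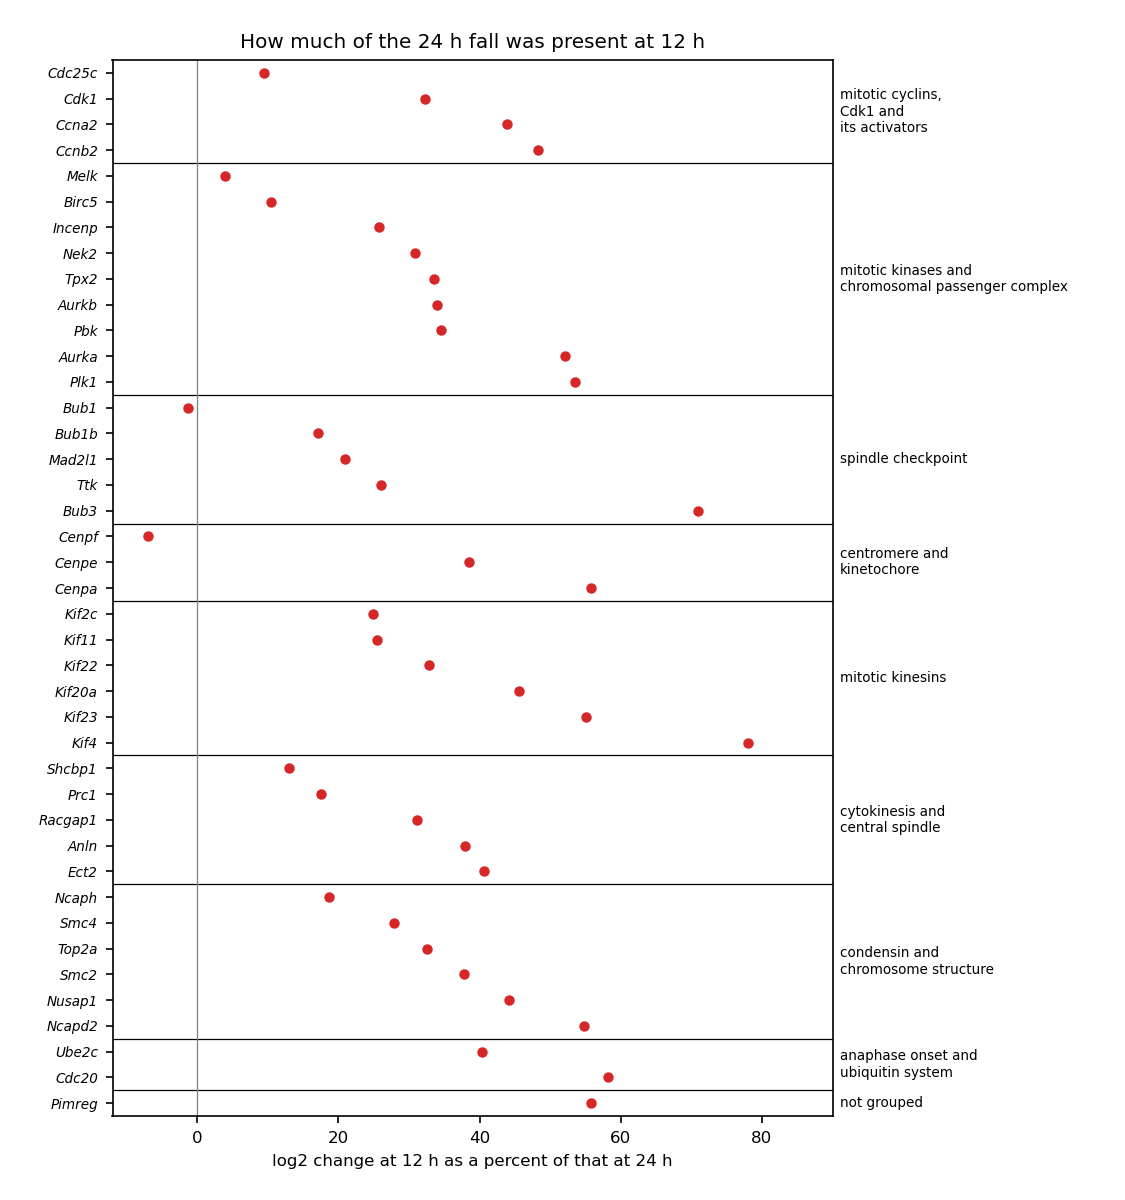
Log2 change at 12 h as a percent of that at 24 h (horizontal axis) for each of the 41 genes lower at 24 h (rows, grouped by function, 1 point per gene). Points run from -6.9% for Cenpf to 78.0% for Kif4, and 4 of the 5 checkpoint genes lie to the left of the median of 33.5%.

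Whether a gene fell faster in the later 12 h than in the first was tested as a difference of the changes. Bub1, Cenpf, Birc5, Shcbp1 and Prc1 had a more negative change from 12 to 24 h than from 0 to 12 h, 5 of 44 genes or 11.4%, against 4.21% of all genes. None had a more positive one by limma (1 at an unadjusted p under 0.05). The median difference over the members was -0.57, against -0.04 over all genes. Bub1 had the greatest difference, -2.04 ± 0.28 on the log2 scale (adjusted p = 0.00446), and its signals are those given with the checkpoint.

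Birc5 showed the same course, with 2471 and 2785 at 0 h, 2990.2 and 2989 at 6 h, 2240.1 and 2260.4 at 12 h, and 580.4 and 618 at 24 h. It was highest at 6 h and clearly low only at 24 h, and the difference of its changes was -1.64 ± 0.26. Shcbp1 gave 1404 and 1016 at 0 h, 1426 and 964 at 6 h, 1023 and 917 at 12 h, and 233 and 216 at 24 h, with overlap among the first 3 times (difference -1.67 ± 0.38). Prc1 gave 1249.7 and 1217 at 0 h, 1258 and 1184 at 6 h, 956 and 966 at 12 h, and 294 and 275 at 24 h, a small step by 12 h and a great one after it (difference -1.30 ± 0.26). For Cenpf the difference was -1.78 ± 0.28. Second kept probe sets were not tested on their own. Their log2 changes from 0 h, at 12 and 24 h, were -0.63 and -2.33 for Prc1, -0.41 and -1.19 for Bub1, and 0.01 and -0.45 for Cenpf.

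Calls of this test of the later against the earlier 12 h depended on the 12 h arrays, and the count was 0 without replicate 2 of 12 h and 2 without replicate 1. With the replicate number as a block the count was 11, the added genes being Cdk1, Incenp, Kif11, Mad2l1, Melk and Pbk. The share of all genes called by this test with the block is not given here. In the shorter windows, from 6 to 12 h against 0 to 6 h, no member differed by limma in either direction, against 0.518% of all genes more negative and 0.381% more positive; at an unadjusted p under 0.05 there were 6 and 1.

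**Figure D5:**
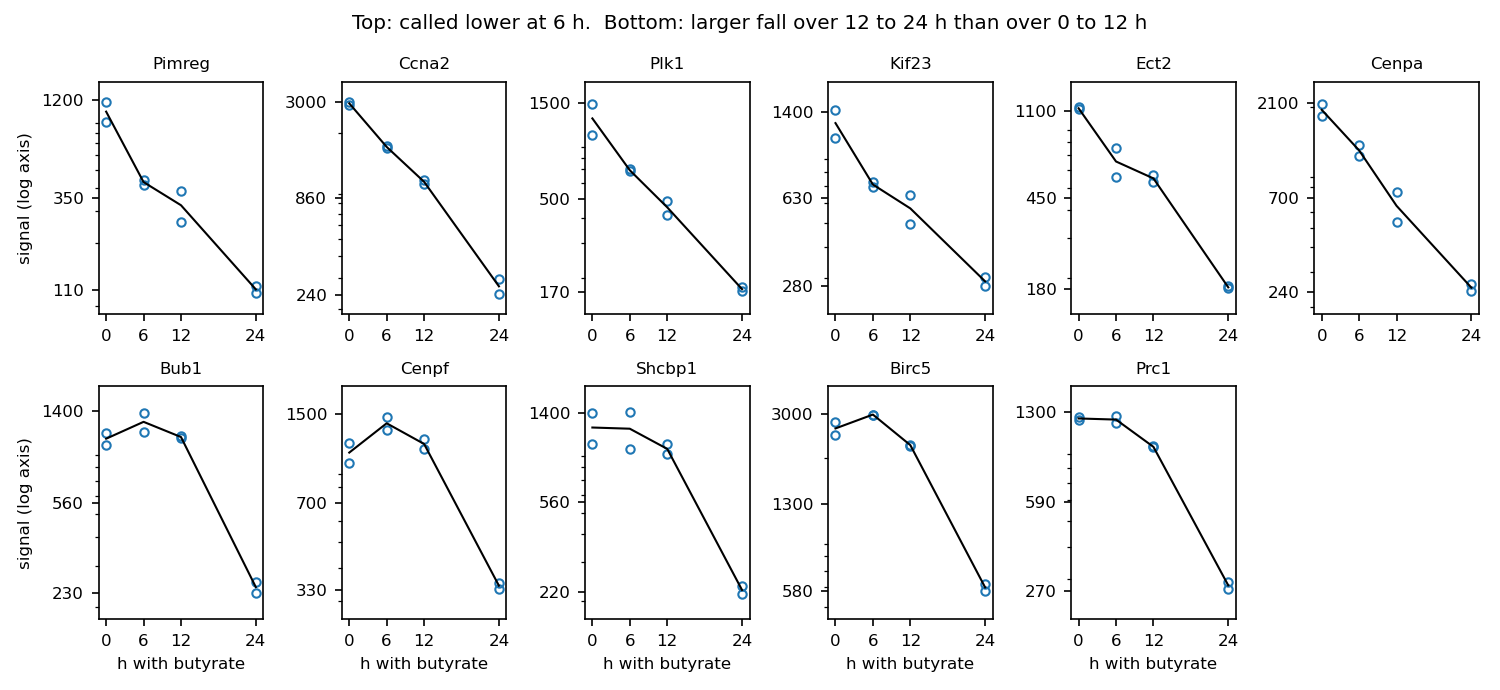
Signal (vertical axes, log scale) on each array (circles; lines join the means of 2 arrays) against hours with butyrate (horizontal axes). In the top row are the 6 genes called lower at 6 h, which step down from the start. In the bottom row are Bub1, Cenpf, Shcbp1, Birc5 and Prc1, which were not called lower at 12 h and are low at 24 h. The 12 h arrays of Birc5 and Prc1 already lie below those at 0 h.

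Many genes of the same pathways outside the list were lower at 24 h. From 96 further genes of mitotic entry, G2/M transcription, kinetochore, spindle, condensin, cohesin and the anaphase-promoting complex, 73 were tested, and 46 were lower at 24 h, or 63%, against 23.5% of all genes, and 1 was higher, against 24.6%. Their median log2 change was -0.94. At 12 h 27 were lower, or 37%, against 17.5%, and 2 higher, against 18.1%. At 6 h 7 were lower, or 9.59%, which is near the 6.68% of all genes, and 1 was higher, against 9.06%. All 13 other spindle and cytokinesis genes fell at 24 h, among them Hmmr, a spindle-pole protein, and Plk4, the kinase that duplicates centrioles, with log2 changes of -2.57 and -2.55. Of 17 other kinetochore and checkpoint genes 13 fell, led by Nuf2 and Spc25 of the Ndc80 complex with -2.11 and -1.72, and Mad2l2, which acts mainly in DNA repair, was higher by 0.55 (adjusted p = 0.0376).

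The counts in the smaller lists stand beside 23.5% of all genes called lower at 24 h. Of 11 genes of G2/M transcription, 6 were lower at 24 h, or 54.5%, with Lin9, a MuvB subunit, at -1.50 and Mybl2, encoding B-Myb, at -1.38. Lin9 passed the filter only through its 0 h arrays (154.4 and 193.2, against the cutoff of 144.5). It was thus tested only because it was high at 0 h, and its fall is no independent support. Of 8 further genes of mitotic entry, 4 were lower, or 50%, with the Cdk-binding proteins Cks2 at -1.76 and Cks1b at -1.56. Among 3 other condensin genes 2 were lower, Ncapg2 at -2.16 and Ncapg at -1.82, and among 9 cohesin genes 5 were lower, with Sgo1, the protector of centromeric cohesion, at -2.37 and Cdca5, encoding sororin, at -1.99. Of 12 further genes of the anaphase-promoting complex, 3 were lower, or 25%, which is near the share of all genes. These 3 were among its 10 tested subunits, with Cdc23 at -0.74 and Anapc4 at -0.52 the furthest down, and the subunits' median was -0.07, against 0.04 over all genes. The coactivator Fzr1, at 0.03, and the ubiquitin-conjugating enzyme Ube2s, at -0.19, were not called, unlike the members with like roles, Cdc20 and Ube2c; that difference was not tested.

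The pathway genes already called at 6 h were few. Gtse1, a microtubule-tip protein of G2, had a log2 change of -1.21, and Aspm, a spindle-pole protein, one of -1.16, beside the -1.21 of Pimreg. Stag1 (-0.80), Numa1 (-0.68), Lin9 (-0.67), Sgo1 (-0.62) and the NF-Y subunit Nfyc (-0.82) were also lower, and the cohesin subunit Smc3 was higher by 0.73 (adjusted p = 0.0388). Among these falls the adjusted p by limma reached 0.0464, for Sgo1, and Lin9 passed the filter only through its 0 h arrays. Alternative settings and further probe sets were examined only for the members, so how far these pathway calls depend on single arrays was not tested.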

How the data were processed

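Expression was measured in MCE301 cells with 2 mM butyrate for 0, 6, 12 and 24 h, on 2 Affymetrix 430A arrays for each time, grouped and numbered by their titles. The deposited table holds 1 linear intensity (signal) for each of 22690 probe sets and array; the authors had scaled all arrays to a 2% trimmed mean of 500.2, as the values themselves show, and the sources used here do not name the software that summarised the probes. Median signals were 140.1 to 152.4, and 21.2% to 26.4% of an array's signals lay below 32, where they say little; with 2 arrays a time, their number limits the precision.

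Control probe sets (64) were left out. Genes were named from the platform annotation where a probe set had 1 gene (20380; 691 had several and 1555 were not listed), of which 20351 had an Entrez match in RefSeq on GRCm38.p6. A probe set was kept if at least 2 of 8 arrays exceeded the median of all values (144.5), and for each gene the kept probe set of highest mean was used. Values were taken as log2(signal + 32) and fitted with limma 3.58.1 in R 4.3.3 (lmFit and eBayes, 4 times, all arrays, residual df 4, prior df 6.37) for 7 comparisons, with Benjamini-Hochberg adjustment over 7340 genes, and the fit was tested on simulated data. Errors after ± are standard errors of the fit.

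Replicate numbers are shared by all times. Deviations of same-numbered arrays correlated between times at 0.125 to 0.382 in all 6 pairs. Unless another setting is named, calls, standard errors and p-values come from the fit without a block, in which arrays were not paired. A fit with the replicate number as a block was run as an alternative, on the ground of the data and not of a label. Blocked calls of members are named where they differ, and pathway genes were not compared between the fits with and without the block. At most 0.2% of the signals of 2 arrays of a time were identical. The members, lists, named genes and motifs were chosen with earlier results of these data known. By rule, array values were given for members called lower at 6 h, for the 10 largest falls at 24 h and for members not lower then or called higher; of each pathway list the 2 genes with the largest change in the list's direction at 24 h were named, with any called the other way. Array values of further members and the pathway genes called at 6 h were added after their values were seen. Alternatives were other pseudocounts (16, 64), filters (none, or a mean over 500), quantile and median scaling, the mean of all kept probe sets, the replicate block, trend and robust eBayes, only the times compared, and leaving out each array.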

Additional observations from a re-analysis of the deposited data

Results flagged for a closer look

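In 5 genes the change in log2 signal from 12 to 24 h differed by the test from that from 0 to 12 h, being more negative in the later window. The difference was -2.04 for Bub1, -1.78 for Cenpf, -1.67 for Shcbp1, -1.64 for Birc5 and -1.30 for Prc1. Bub1 lost this call only without replicate 2 of 12 h (adjusted p = 0.0533). Cenpf lost it with no filter and without that array, Birc5 and Prc1 with no filter and without either 12 h array, and Shcbp1 with no filter and without replicate 2 of 0 h or any 1 of the arrays at 12 or 24 h. Groups of 2 arrays are too small for a test of a single array standing apart.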

How the results depend on the processing

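The counts of genes lower at 12 h (23) and at 24 h (41) stayed within 1.5 times under all settings, at 16 to 29 and 30 to 42; the 30 came with the stricter filter, under which 32 members were tested. With the replicate block, 26 were lower at 12 h. The count lower at 6 h (6) was 2 with no filter, 10 with the replicate block and 2 to 3 without 1 array. The count lower from 6 to 12 h (6) was 0 with no filter, 0 with only the times compared, and 0 to 1 without 1 array, and the count higher (0) was 1 with a pseudocount of 64, the stricter filter, median centring, the mean of kept probe sets, the block, or trend and robust eBayes. The count lower from 12 to 24 h (38) was 23 to 34 without 1 array. More negative changes in the later 12 h (5) numbered 1 with no filter, 11 with the block and 0 to 5 without 1 array. Higher calls at 12 h (2) numbered 1 with the mean of kept probe sets and 1 to 2 without 1 array; those at 24 h (2) numbered 1 with no filter, 1 with that mean and 1 without any 1 array. The direction of Zwint at 24 h reversed with the mean of its kept probe sets (-0.076, adjusted p = 0.678), since 3 of its other 4 probe sets go the other way; otherwise the cause was not tested. No scaling moved the median of all genes by over 0.1. Signals below 32 limit what can be said of dim genes such as Kif11 at 24 h.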
